A study of Mus musculus with 5 samples.

Results

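The 10 ERK feedback genes examined here are Dusp4, Dusp5, Dusp6, Spry1, Spry2, Spry4, Spred1, Spred2, Etv4 and Etv5. They were taken by symbol from a count table of 24062 genes, all 10 were found, and all 10 had enough reads to be tested. The table covers 5 RNA-seq libraries of mouse mitral valve leaflets, made to see what loss of Ift88, an intraflagellar transport gene needed to build cilia, does to the transcriptome. By their titles 2 libraries are wild type (WT) and 3 are knockout (KO), and the groups compared follow the titles. All animals carried the NfatC1Cre driver, a Cre active in the endocardial lineage, so cells of other origin in a leaflet would keep an intact gene. The genotype notes give the allele Ift88f/f to the WT animals and Ift88+/+ to the KO animals, the reverse of what the titles imply. Neither the age of the animals nor whether leaflets were pooled is stated in the labels used here. No label says whether each library is a separate animal, so the p-values below rest on a spread between libraries that may be technical.

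The libraries held between 23361414 and 53789026 counted reads. Ift88 stood at 7.54 and 19.8 CPM in WT replicates 1 and 2, and at 3.0, 3.92 and 0.409 in KO replicates 1, 2 and 3. CPM are reads of the gene scaled to library size and, by TMM, to library composition. Every KO library lay below both WT libraries for Ift88, so its level followed the titles. Its log2 fold change was -2.48 (SE 1.125), but it did not pass (adjusted p = 0.81, edgeR quasi-likelihood test). The test used below thus did not call the targeted gene itself. The libraries differed in cell content, as read from marker lists. The 8 markers each of valve endothelium and of valve interstitial cells were all detected in all 5 libraries, but WT replicate 1 was low in both, with summed levels of 259 CPM for endothelium (1374 to 2393 in the other 4) and 2609 for interstitial cells (7272 to 10590). Fold changes, KO against WT, were positive for 8 of the 8 endothelial and 7 of the 8 interstitial markers, with 0 called. Both WT libraries lay below every KO library for Cdh5, Emcn, Npr3, Vwf, Pdgfrb, Col1a1, Col3a1, Postn and Dcn. They did not for the other markers of these lists, and 13.5% of all genes tested lay so. The part of this in the fold changes below was not tested. The 8 cardiomyocyte markers summed to 91.8 CPM in WT replicate 2, against 47390 in WT replicate 1 and 24360 to 31080 in KO, with none at 0. Mesothelial markers summed to 168 CPM in KO replicate 2 and to between 1.9 and 25.8 in the other libraries. In such bulk samples fewer cells of a type cannot be told apart from less RNA per cell.

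**Figure D1:**
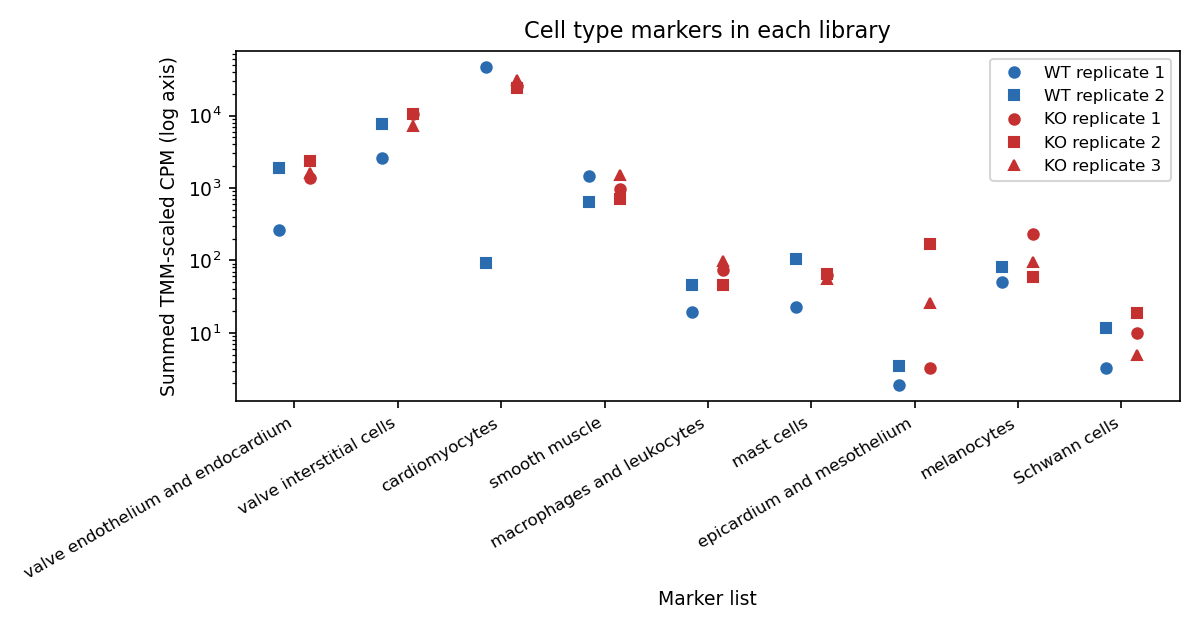
Summed TMM-scaled CPM of each cell type marker list (log axis) in each library, blue for WT and red for KO, with 1 point per library and lists with at least 3 genes tested. WT replicate 2 lies at 91.8 for cardiomyocyte markers, below the 24360 of the lowest other library, and WT replicate 1 lies lowest for endothelial and interstitial markers.

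Growth factor receptors such as the FGF receptors signal through RAS, RAF and MEK to the kinase ERK, and ERK in turn induces genes that hold the same cascade in check. Among these are dual-specificity phosphatases, which remove the phosphates that activate ERK, and the Sprouty and Spred proteins, which act at the level of RAS and RAF. Etv4 and Etv5 encode ETS transcription factors of the PEA3 group that FGF signalling induces and that carry part of its transcriptional output. In the developing heart this pathway takes part in the growth and remodelling of the endocardial cushions from which valves form, and the level of these genes is widely used as a readout of ERK activity.

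Reference promoters were available for 7 of the 10 genes, namely Dusp5, Dusp6, Spry1, Spry2, Spred1, Spred2 and Etv5, with 2 start sites for Etv5. The 250 bases before the start are shown for 4 genes, from RefSeq on GRCm38.p6, 5′ to 3′ on the strand of the gene. Dusp6 and Etv5 were the most abundant of the genes, Dusp5 varied most between libraries, and Spred2 had the largest fold change. The RefSeq starts differ in part from the gene positions given below, which are from GENCODE. By those positions the Etv5, Dusp5 and Spred2 windows reach into the gene, and the Dusp6 window does not. Capitals mark matches to the motifs named after the sequences.
Dusp6, plus strand, chr10:99262981-99263230: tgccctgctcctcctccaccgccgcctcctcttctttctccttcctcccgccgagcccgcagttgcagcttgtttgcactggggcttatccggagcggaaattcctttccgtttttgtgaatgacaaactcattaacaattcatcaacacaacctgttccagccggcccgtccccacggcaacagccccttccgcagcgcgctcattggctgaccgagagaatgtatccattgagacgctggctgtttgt
Etv5, minus strand, upstream start, chr16:22439571-22439820: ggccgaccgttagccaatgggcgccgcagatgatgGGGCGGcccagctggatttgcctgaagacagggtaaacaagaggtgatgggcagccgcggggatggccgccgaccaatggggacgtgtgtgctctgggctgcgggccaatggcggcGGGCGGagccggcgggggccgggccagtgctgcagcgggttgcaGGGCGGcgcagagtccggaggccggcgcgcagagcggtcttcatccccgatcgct
Dusp5, plus strand, chr19:53528895-53529144: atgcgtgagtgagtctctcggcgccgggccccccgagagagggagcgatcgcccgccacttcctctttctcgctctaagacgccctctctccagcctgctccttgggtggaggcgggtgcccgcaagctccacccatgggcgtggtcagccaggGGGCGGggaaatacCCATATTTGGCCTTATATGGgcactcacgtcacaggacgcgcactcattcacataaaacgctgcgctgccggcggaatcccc
Spred2, plus strand, chr11:19924192-19924441: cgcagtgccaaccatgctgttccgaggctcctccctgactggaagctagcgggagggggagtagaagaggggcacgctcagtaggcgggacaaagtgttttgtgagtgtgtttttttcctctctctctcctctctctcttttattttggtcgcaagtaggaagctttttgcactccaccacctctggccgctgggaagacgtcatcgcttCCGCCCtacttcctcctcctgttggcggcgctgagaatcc

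Both strands of these windows were searched for 6 motifs, chosen with earlier results of these data known. The CArG box, to which serum response factor binds, was found in 1 of the 8 windows, that of Dusp5, which holds 2 end to end at 82 to 63 bases before the start. Of all 32851 RefSeq promoter windows of this length outside chromosome 18, 1.47% hold one. The GC box GGGCGG was found in 5 of the 8 windows, against 32.7% of all windows. It had 3 matches before the upstream start of Etv5 and 1 each in the Dusp5 and Spred2 windows shown. All 8 windows were richer in G and C, at 56 to 71.2%, than the median of all windows, 52.4%. The part of this in the count of GC boxes was not tested. The letters CCGGAAG (an ETS motif, 6.91% of all windows), TGACGTCA (a cAMP response element, 1.55%), TGANTCA (an AP-1 motif, 6.75%) and TATAAA (12.4%) were in 0 of the 8 windows. All counts here are matches of letters, and no motif searched overlaps another in the windows shown. Only the letters given were searched, so 0 of the 8 windows says nothing of other forms of a motif, such as other ETS motifs.

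None of the 10 genes differed between KO and WT in the edgeR quasi-likelihood test, with adjusted p-values between 0.892 and 0.994. Over all 14244 genes tested 0 (0%) passed. At an unadjusted p under 0.05 the members counted 0, and all genes 832 (5.84%). The likelihood-ratio test, limma-voom and DESeq2 also called 0 of the 10 genes. Fitted fold changes were positive for 7 and negative for 3, the 3 phosphatases, where 49.4% of all genes tested were positive. The median log2 fold change of the 10 was 0.56, against -0.01 over all genes. For 2 of the 10 (Spred2 and Etv4) the KO libraries all lay above the WT libraries, against 13.5% of all genes, and for 0 they all lay below, against 11.1%. Over 10 genes both counts are near the background.

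**Figure D2:**
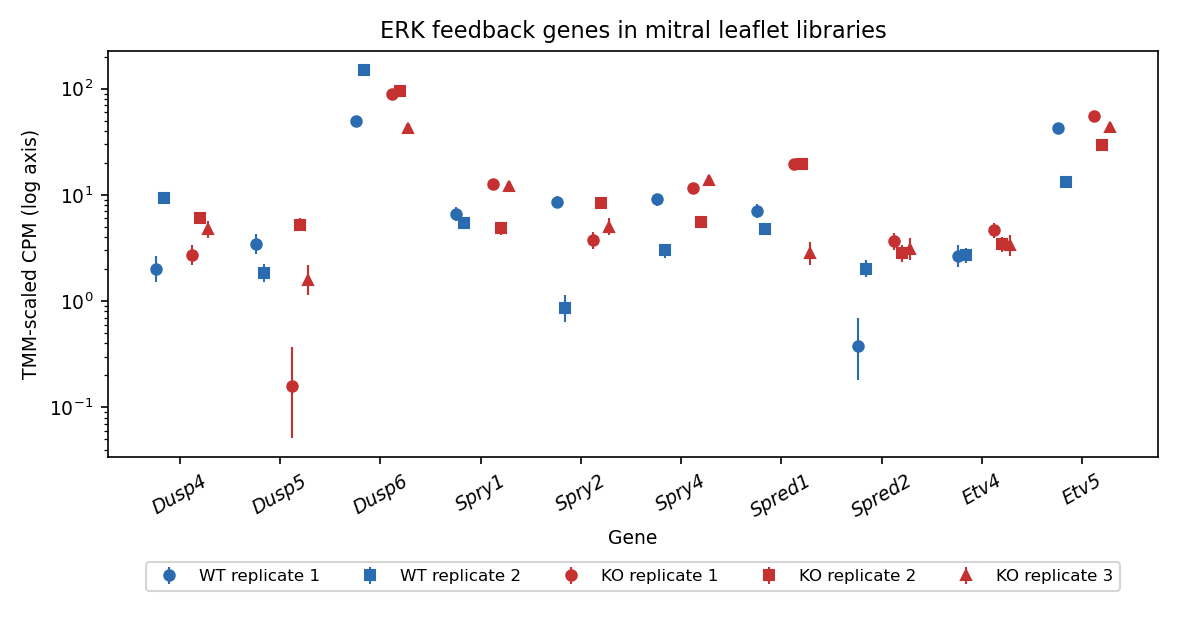
Level of each of the 10 genes in each library (TMM-scaled CPM, log axis), blue for WT and red for KO, with 95% exact Poisson intervals that cover counting error only. The groups overlap for 8 genes, and the KO libraries lie above both WT libraries for Spred2 and Etv4.

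Dusp6 encodes the cytoplasmic phosphatase that is specific for ERK. It is on chromosome 10 (99263231 to 99267489 in GRCm38, the build of all gene positions here, plus strand) and has 3 exons in its longest coding transcript. It stood at 49.7 and 149 CPM in WT replicates 1 and 2 and at 89.3, 95.3 and 42.3 in KO replicates 1, 2 and 3. WT replicate 2 was the highest of the 5 libraries and KO replicate 3 the lowest, and 2 of the KO libraries lay between the WT libraries. WT averaged 99.5 ± 70.3 (SD, n = 2), KO averaged 75.7 ± 29.0 (SD, n = 3), and the fitted log2 fold change was -0.40 (SE 0.59, 95% interval -1.83 to 1.04). Its sign rested on WT replicate 2, since leaving that library out gave 0.61 and leaving out WT replicate 1 gave -1.01.

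Dusp4, on chromosome 8 (34807297 to 34819894, plus strand, 4 exons), encodes a nuclear phosphatase of the same family. Its levels were 2.02 and 9.27 CPM in the 2 WT libraries and 2.75, 6.02 and 4.75 in KO. As for Dusp6, WT replicate 2 was the highest library, and here all 3 KO libraries fell between the WT libraries. The WT libraries differed 4.60-fold, and the log2 fold change between groups was -0.33 (SE 1.07, interval -2.92 to 2.27). This too changed sign, to 1.16 without WT replicate 2.

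Dusp5, on chromosome 19 (53529109 to 53542431, plus strand, 4 exons), encodes a nuclear phosphatase specific for ERK. It was at 3.46 and 1.84 CPM in the 2 WT libraries and at 0.158, 5.26 and 1.60 in KO. KO replicate 1 held 5 reads of the gene (95% Poisson interval of the level 0.0513 to 0.369 CPM) and KO replicate 2 held 223. The 33.3-fold spread within KO was the widest of the 10 genes, and KO libraries were both the highest and the lowest. The log2 fold change was -0.18 (SE 1.68, interval -4.27 to 3.91), and it was positive in 3 of the 5 fits that left out 1 library, at 0.30 without WT replicate 1, 0.34 without KO replicate 1 and 0.04 without KO replicate 3, against -1.59 without KO replicate 2. An antisense gene shares 547 exonic bases with Dusp5, and the library kit does not mark strand, so reads from both cannot be told apart.

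Spry1 encodes a Sprouty protein, an inhibitor of receptor tyrosine kinase signalling. It lies on chromosome 3 (37639947 to 37644598, plus strand, 2 exons). Its levels were 6.62 and 5.43 CPM in the 2 WT libraries and 12.6, 4.86 and 12.0 in KO. KO replicates 1 and 3 stood above both WT libraries and KO replicate 2 below both. The WT libraries were close, at 6.02 ± 0.85 (SD, n = 2), and KO was at 9.82 ± 4.31 (SD, n = 3). The log2 fold change of 0.71 (SE 0.79, interval -1.20 to 2.61) was positive in every fit that left out 1 library, between 0.46 and 1.03. An antisense gene shares 710 exonic bases with Spry1.

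Spry4, on chromosome 18 (38586247 to 38601415, minus strand, 2 exons), encodes another Sprouty protein. It was at 9.06 and 3.0 CPM in the 2 WT libraries and at 11.5, 5.59 and 13.8 in KO, with KO replicate 2 the lowest of the KO libraries, as for Spry1. WT replicate 2 was the lowest library of all. The log2 fold change was 0.77 (SE 0.86, interval -1.32 to 2.86), which ranged from 0.19 without WT replicate 2 to 1.75 without WT replicate 1.

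Spry2, on chromosome 14 (105891947 to 105896819, minus strand, 2 exons), stood at 8.56 and 0.867 CPM in the 2 WT libraries and at 3.73, 8.44 and 5.04 in KO. The WT libraries were the highest and the lowest of the 5, 9.88-fold apart, and enclosed all 3 KO libraries. This gap within WT was the widest of the 10 genes. The fitted log2 fold change was 0.29 (SE 1.20, interval -2.64 to 3.21), and it ran from -0.58 without WT replicate 2 to 2.68 without WT replicate 1.

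Spred1 and Spred2 encode relatives of the Sprouty proteins that bind neurofibromin, the RAS GTPase-activating protein, and bring it to the membrane. Spred2, on chromosome 11 (19924375 to 20024026, plus strand, 7 exons), was at 0.381 and 2.03 CPM in the 2 WT libraries and at 3.66, 2.83 and 3.11 in KO. All KO libraries were above both WT libraries and close to each other, at 3.20 ± 0.42 (SD, n = 3). Only 10 reads were counted in WT replicate 1 (95% Poisson interval of the level 0.183 to 0.70 CPM), and 76 to 120 in each of the others. Of the 10 genes it had the largest log2 fold change, 1.40, but with an SE of 1.46 (interval -2.14 to 4.95, adjusted p = 0.922 in the edgeR quasi-likelihood test). Without WT replicate 1 the value was 0.63, and without WT replicate 2 it was 3.06. WT replicate 1 is also the library with the lowest endothelial and interstitial marker sums given above, whose part in the low Spred2 level was not tested.

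Spred1, on chromosome 2 (117121374 to 117182279, plus strand, 7 exons), was at 7.08 and 4.78 CPM in the 2 WT libraries and at 19.4, 19.7 and 2.83 in KO. KO replicates 1 and 2 were nearly equal and above both WT libraries, while KO replicate 3 was the lowest library of all, 6.96-fold below the highest in KO. The log2 fold change was 1.24 (SE 0.98, interval -1.15 to 3.62), with the smallest unadjusted p of the 10 (0.253, edgeR quasi-likelihood test). It was 1.72 without KO replicate 3 (unadjusted p = 0.0447, adjusted p = 0.976 by the same test). Spred1 has the longest transcript of the 10 genes (6016 nt), and with each library's trend with transcript length removed its log2 fold change was -0.045. The same step gave 0.43 for Spry1, 0.28 for Spry4 and 0.39 for Etv5, -1.17 for Dusp5, and 0.94 for Spry2. These values come from limma on log2 CPM, so they differ from the edgeR fold changes in estimator too. On that scale the group means already lay 1.07 apart for Dusp5 and 0.957 for Spry2 before the trend was removed. The gaps were 0.815 for Spred1, 0.587 for Spry1, 0.874 for Spry4 and 0.807 for Etv5.

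Etv5 lies on chromosome 16 (22381309 to 22439719, minus strand, 13 exons). It was the second most abundant of the genes, at 43.0 and 13.1 CPM in the 2 WT libraries and at 55.7, 29.4 and 43.9 in KO. KO replicates 1 and 3 were above both WT libraries, KO replicate 2 lay between them, and WT replicate 2 was the lowest library. WT averaged 28.0 ± 21.2 (SD, n = 2) and KO 43.0 ± 13.2 (SD, n = 3), with a log2 fold change of 0.62 (SE 0.62, interval -0.89 to 2.13). Leaving out WT replicate 2 gave 0, and leaving out WT replicate 1 gave 1.69 (unadjusted p = 0.0276, adjusted p = 0.291 in the edgeR quasi-likelihood test).

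Etv4, on chromosome 11 (101769742 to 101785371, minus strand, 13 exons), was the steadiest of the genes within WT, at 2.66 and 2.70 CPM. In KO it was at 4.68, 3.42 and 3.36 CPM, all above both WT libraries. WT averaged 2.68 ± 0.03 (SD, n = 2) and KO 3.82 ± 0.74 (SD, n = 3). A log2 fold change of 0.51 was fitted, with an SE of 1.11 (interval -2.18 to 3.20). edgeR shares information on dispersion between genes of similar level, and the biological coefficient of variation it fitted to Etv4 was 88.1%, wider than the spread of these 5 values. The test gave an adjusted p of 0.977 (edgeR quasi-likelihood). Leaving out any 1 library kept it between 0.30 and 0.59.

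**Figure D3:**
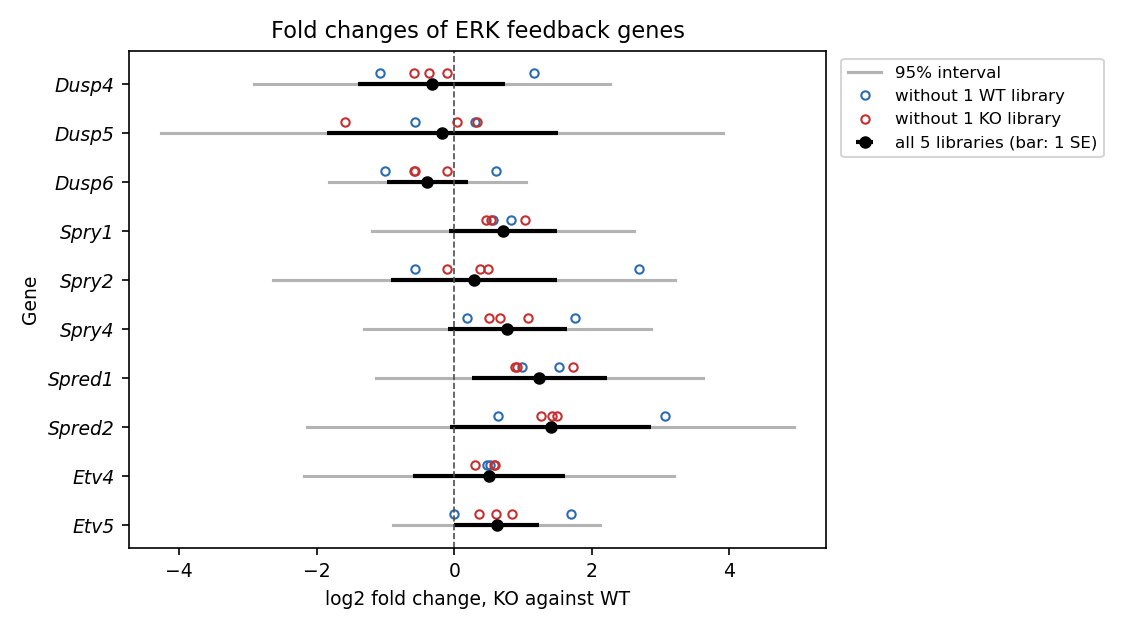
log2 fold change of each gene, KO against WT, in the edgeR fit to all 5 libraries (black point, bar of 1 SE, grey 95% interval) and in fits without 1 WT (blue) or 1 KO library (red). All intervals cover 0, and the blue circles lie on both sides of 0 for Dusp4, Dusp5, Dusp6 and Spry2.

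The WT libraries differed from each other by more than the group means did, on the log2 CPM scale, for 6 of the 10 genes (Dusp4, Dusp6, Spry2, Spry4, Spred2 and Etv5), against 65.4% of all genes tested. The genes did not share a direction in this. WT replicate 2 was the highest library for Dusp4 and Dusp6 and the lowest for Spry2, Spry4 and Etv5. This is the library with almost no cardiomyocyte signal, and WT replicate 1, at the other end for Dusp4 and Spry2, had the highest cardiomyocyte sum. Most of that sum was Actc1 (31260 CPM), and not all markers followed it. Actc1, Myl2, Tnnt2 and Nppa were higher in WT replicate 1 than in every KO library. Myh6 (583 CPM) and Ttn (285) were lower than in every KO library, and Myl7 and Ryr2 lay within the KO range. The part of cell content in these differences was not tested.

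Among the KO libraries the genes also went different ways. KO replicate 2 was the lowest KO library for Spry1, Spry4, Etv5 and Spred2 and the highest for Dusp4, Dusp5, Dusp6, Spry2 and Spred1. It is the library with the highest mesothelial marker sum, 168 CPM, whose part in this was not tested. No library was the highest or lowest for most of the genes. KO replicate 1 was the highest for 4 (Spry1, Spred2, Etv4 and Etv5), WT replicate 2 and KO replicate 2 for 2 each, and WT replicate 1 and KO replicate 3 for 1 each.

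Per length, as CPM per kb of the longest coding transcript, Dusp6 was the most abundant of the 10 genes in all 5 libraries. It averaged 30.5 ± 15.3 CPM per kb (SD, n = 5 libraries), and Etv5 came next at 9.31 ± 4.10, below Dusp6 in 5 of 5 libraries. Spry1 (2.99 ± 1.34), Spry2 (2.55 ± 1.57), Dusp4 (1.81 ± 1.05), Spry4 (1.81 ± 0.92), Spred1 (1.79 ± 1.36), Etv4 (1.40 ± 0.34), Dusp5 (1.0 ± 0.79) and Spred2 (0.54 ± 0.29) followed. Etv5 was above Spry1 in 5 of 5 libraries, but just below Dusp4 in WT replicate 2 (3.29 against 3.39 CPM per kb). Neighbours further down did not differ beyond their spread, changing places in at least 1 library. With the shortest coding transcript as the length, Etv5 ranked above Dusp6 and Spred2 rose from rank 10 to 5.

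Dusp6 made up 42.9 and 80.7% of the summed level per kb of the 10 genes in WT replicates 1 and 2, and 51.7, 58.7 and 37.1% in KO replicates 1, 2 and 3. Etv5 made up 26.1 and 5.0% in WT and 22.7, 12.7 and 27.1% in KO. The shares in KO fell within the range of the WT libraries for Dusp6 in KO replicates 1 and 2 and just below it in KO replicate 3. Per kb, Etv5 exceeded Etv4 by 9.73- and 2.92-fold in WT and by 7.18-, 5.18- and 7.88-fold in KO, so that Etv5 was the main member of the pair in every library. Dusp6 exceeded Dusp4 by 24.2- and 15.8-fold in WT and by 31.9-, 15.5- and 8.74-fold in KO. Between the Spred genes the order was not fixed, with Spred1 13.8- and 1.75-fold above Spred2 in WT, 3.91- and 5.14-fold above it in KO replicates 1 and 2, and at 0.671 of it in KO replicate 3.

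**Figure D4:**
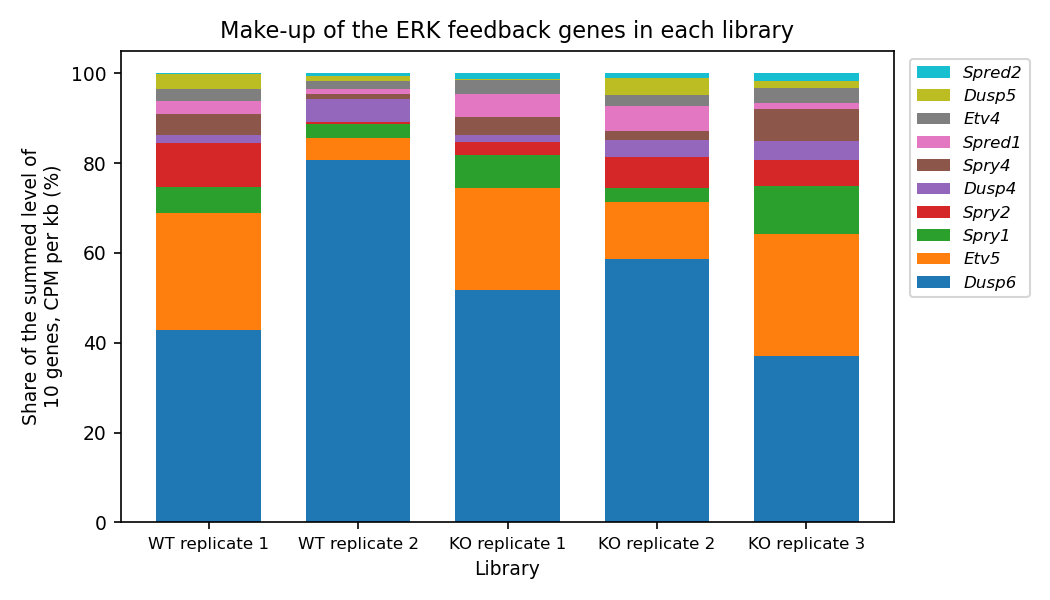
Share of each gene in the summed level of the 10 genes (percent of the sum of CPM per kb) in each library, stacked in order of mean level from Dusp6 at the bottom to Spred2 at the top. Dusp6 takes between 37.1% in KO replicate 3 and 80.7% in WT replicate 2.

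The genes whose profile over the 5 libraries came closest to the median profile of the 10 were 2410002F23Rik, Dhx37, Kif3a, Hnrnph2 and Recql5, of 13697 genes that averaged 20 or more normalized reads. Their root mean square distances from it, on centred log2 CPM, were 0.13 to 0.14. The 10 genes themselves lay farther away, from 0.19 for Etv4 to 1.79 for Dusp5, so the median profile describes Etv4 and few of the others. Kif3a, a kinesin-2 subunit, was at 18.7 and 15.9 CPM in the 2 WT libraries and at 33.0, 31.0 and 23.2 in KO (log2 fold change 0.75, SE 0.45). None of the 5 passed the edgeR quasi-likelihood test, with adjusted p-values between 0.81 and 0.923, and the choice of a profile higher in KO fixes their direction.

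The rest of the pathway was described by 6 lists, of which 65 of 74 genes were tested. In the edgeR quasi-likelihood test 0 were called in either direction, 7 were higher and 1 lower at an unadjusted p under 0.05, and 39 had a positive fold change. Over all 14244 genes tested 651 (4.57%) were higher and 181 (1.27%) lower at that p, and 49.4% had a positive fold change. With each library's trend with transcript length removed, 28 of the 65 were positive, and the median log2 fold change of all genes was -0.18. The KO libraries all lay above WT for 15 of the 65 genes and all below for 5, beside 13.5% and 11.1% of all genes. The 15 include Fgfr4 and the 5 include Fgf10, each kept by the read filter through 1 group only. DESeq2 called 2 of the 65, Dusp8 and Fgfr4, among 218 of 14244 genes (1.53%). The fit without WT replicate 1 called 1, Cbl, which encodes a ubiquitin ligase of receptor tyrosine kinases, among 245 of 15340 genes (1.6%). Fgfr4 and Cbl are named because of those calls, after their values were seen. Fgfr4 had no read in WT and 2, 145 and 124 in KO, so its level pooled over the KO libraries was at least 77.0-fold higher, against a floor of 3 reads over both WT libraries. That pooled WT floor is 0.036 CPM. KO replicate 1, with 2 reads (0.063 CPM), lies below its own floor of 3 reads (0.095 CPM), so the bound rests on KO replicates 2 and 3. Cbl had 45 and 0 reads in WT and 396, 416 and 546 in KO. Removing each library's trend with transcript length lowered several log2 fold changes given below, to 0.73 for Fgfr1, 0.67 for Ptpn11, 0.80 for Gab2, 0.11 for Braf, 0.71 for Dab2ip, 0.98 for Dusp16 and 2.11 for Dusp8.

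Of the other MAP kinase phosphatases, 6 of 7 were tested, 5 were positive, with a median of 1.33. The KO libraries all lay above WT for 4 and all below for 1, beside 13.5% and 11.1% of all genes. The 1 below was Dusp1, named after its values were seen. Dusp1, a phosphatase of several MAP kinases, was at 131 and 130 CPM in the WT libraries and at 56.9, 102 and 87.7 in KO (log2 fold change -0.67, SE 0.36). Dusp8, which acts mainly on JNK and p38, was at 1.83 and 1.33 CPM in the 2 WT libraries and at 11.9, 15.4 and 6.43 in KO (log2 fold change 2.83, SE 0.89). Dusp16, also a phosphatase of JNK, was at 4.26 and 4.44 CPM in the 2 WT libraries and at 19.3, 11.8 and 11.7 in KO (1.71, SE 0.68). The adjusted p-value of Dusp8 was 0.81 in the edgeR quasi-likelihood test and 0.0411 in DESeq2. The median of this list was 0.82 with the length trend removed.

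Upstream of RAS, 10 FGF ligands and receptors of 15 were tested, with 6 positive and a median of 0.56, which ranged from -1.02 without KO replicate 2 to 1.92 without WT replicate 1. Fgfr4 stayed the highest of the list at its bound, so placing it there could not move this median. Fgfr1, a main FGF receptor of mesenchyme, was at 9.63 and 15.7 CPM in the 2 WT libraries and at 28.4, 37.9 and 31.5 in KO (log2 fold change 1.36, SE 0.48). Fgfrl1, a receptor relative without a kinase domain, was at 7.42 and 2.70 in the WT libraries and at 17.8, 15.4 and 25.8 in KO (1.96, SE 0.72), or 2.83 if WT replicate 1 was left out and 1.41 if WT replicate 2 was. The KO libraries all lay above WT for both and for Fgfr4, and all below for 1, the ligand gene Fgf10, named after its values were seen (0.063, 0.14 and 0 CPM in the KO libraries, against 2.47 and 2.32 in the WT ones). Of all genes 13.5% lay above and 11.1% below in this way. Fgfr4 was kept by the read filter only through KO libraries, and Fgf10 only through WT libraries. Their separation is therefore no support for a difference, and Fgf10 was not placed at a bound. None of Fgfr1, Fgfrl1, Fgfr4 and Fgf10 passed in the edgeR quasi-likelihood test.

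All 10 adaptors between receptors and RAS were tested, with 6 positive and a median of 0.34, and of -0.32 with the length trend removed. Ptpn11, which encodes the phosphatase SHP2 that promotes RAS activation, was at 33.3 and 21.2 CPM in the 2 WT libraries and at 67.2, 109 and 52.3 in KO (log2 fold change 1.48, SE 0.48). For Gab2, a docking protein for SHP2, the value was 1.44 (SE 0.66), falling to 0.74 if WT replicate 1 was left out and rising to 2.72 if WT replicate 2 was.

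In the cascade itself 15 of 16 genes for RAS, RAF, MEK, ERK and their scaffolds were tested, of which 7 were positive, with a median of -0.09. Map2k1, which encodes MEK1, was at 186 and 110 CPM in the 2 WT libraries and at 88.5, 86.4 and 96.1 in KO, below both WT libraries (log2 fold change -0.71, SE 0.35), and at -0.31 without WT replicate 1. For Braf, a RAF kinase, it was 1.31 (SE 0.82), or 0.65 if WT replicate 1 was left out and 2.46 if WT replicate 2 was.

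Other negative regulators, 14 of 16 tested, had 7 positive and 7 negative fold changes and a median of 0.03, which rose to 1.14 on leaving out WT replicate 2 and was -0.28 after removal of the length trend. Dab2ip, a RAS GTPase-activating protein, was at 7.42 and 6.85 CPM in the 2 WT libraries and at 19.2, 24.7 and 23.5 in KO (log2 fold change 1.66, SE 0.52). Pebp1, which encodes RAF kinase inhibitor protein, was at 506 and 321 in the WT libraries and at 204, 265 and 184 in KO (-0.93, SE 0.36), or -0.59 if WT replicate 1 was left out. Neither passed, with adjusted p = 0.81 for both in the edgeR quasi-likelihood test.

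Among 10 other ERK-responsive genes 8 were positive, with a median of 0.27, which became 0.03 on leaving out WT replicate 1 and 0.02 after removal of the length trend. Ccnd1, which encodes cyclin D1, was at 20.9 and 11.5 CPM in the 2 WT libraries and at 31.2, 35.0 and 40.4 in KO (log2 fold change 1.13, SE 0.47). Ier3, an immediate early gene, had a log2 fold change of 0.80 (SE 0.52) with overlapping groups. The KO libraries all lay above WT for 1 of these 10, Ccnd1, and all below for 0, which is no more than the 13.5% and 11.1% of all genes.

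**Figure D5:**
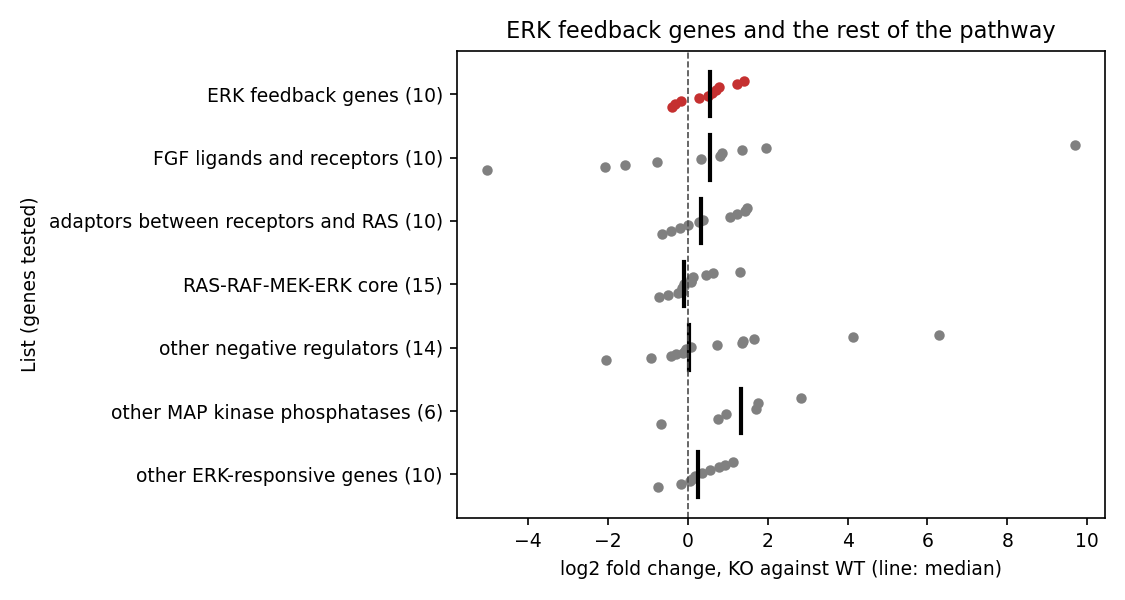
log2 fold change, KO against WT, of the 10 ERK feedback genes (red) and of the genes tested in 6 lists of the pathway (grey), with the median of each as a black line. The feedback genes span -0.40 to 1.40, with a median of 0.56, and the other MAP kinase phosphatases have a median of 1.33.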

How the data were processed

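Total RNA of mitral leaflets was extracted on RNeasy columns with DNase treatment and made into SMART-Seq v4 libraries, per the labels' protocols. The submitters' processing notes list FastQC 0.11.5, cutadapt 1.11, HTSeq and DESeq2, with mm10 and GRCm38 as builds. No aligner or annotation is given in these sources. The deposited values used are raw counts per gene, whole numbers with 17148 genes having a read. The authors' own statistics in that table were not used.

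The analysis used edgeR 4.0.16 (R 4.3.3): filterByExpr (14244 genes kept), TMM, robust quasi-likelihood F test (two-sided), Benjamini-Hochberg adjustment over all genes tested, calls at 0.05. The median biological coefficient of variation was 62.8%. An SE is the log2 fold change divided by the root of F, and 95% intervals are that SE times the t quantile of the fit. log2 CPM used a prior count of 2. limma 3.58.1 and DESeq2 1.42.0 served as alternatives. Fold changes with the length trend removed were fitted by limma to log2 CPM, so they differ from the edgeR ones in estimator too. The fitting code was tested on simulated data.

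Positions and lengths came from GENCODE M21 (GRCm38), which gave a length to 95.4% of genes tested. Groups came from the titles, and replicate numbers, given by accession order, pair no samples. The members and lists were chosen with earlier results of these data known. Named were all members, Ift88, the 2 genes of each pathway list with the smallest p (or up to 4 called), and the 5 genes nearest the members' median profile. Poisson intervals cover counting error only, since amplified reads carry no molecular identifiers.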

Additional observations from a re-analysis of the deposited data

How the results depend on the processing

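With 15 alternatives, 0 of the 10 genes passed in any, with a smallest adjusted p of 0.291 (Etv5, without WT replicate 1). A fit without a WT library, or on the 3 libraries whose titles share a code, holds 1 WT library, which is assumed to vary like the KO libraries. Spry1, Spred2 and Etv4 kept a positive fold change in all 15.

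Over all genes the likelihood-ratio test called 50, DESeq2 218 and the fits without 1 library between 0 and 245 (the latter without WT replicate 1), and the other alternatives 0. DESeq2 called 2 pathway list genes, and fits without 1 library 0 to 1. Dusp8 passed in DESeq2, with a log2 fold change of 2.76. Of the 10 genes, 5 lay above WT in every KO library and 1 below among the libraries that share a title code. Without 1 library these counts were 2 to 5 and 0 to 2. Groups of fewer libraries separate more easily, and the shares over all genes were not computed in these settings. The counts therefore cannot be set against those of all 5 libraries or read as a result about the genes.

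Signs turned as follows. With the shared title code alone Dusp4 was at 1.12, Dusp6 at 0.89, Spry2 at -0.49, Spry4 at -0.084 and Etv5 at -0.015, and with that code as a covariate Dusp4 was at 0.18 and Spred1 fell to 0.47. With library totals only Dusp5 was at 0.014, and the median of all genes moved from -0.01 to 0.10. With the length trend removed Spred1 was at -0.045 and Dhx37 at -0.022, and the median of all genes was -0.18 and that of the 10 genes 0.34. Without 1 library the ranges were -1.08 to 1.16 for Dusp4, -1.59 to 0.34 for Dusp5, -1.01 to 0.61 for Dusp6, -0.58 to 2.68 for Spry2 and 0 to 1.69 for Etv5. No paired analysis was possible because replicate numbers were given by accession order and pair no samples, and the shared title code entered as a covariate instead. With 2 WT libraries, intervals as wide as those given leave changes of several fold undetectable at this depth and number of libraries.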
